A study of Mus musculus with 10 samples.

Results

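The transcripts of 10 genes of the PGC-1, PPAR and fatty acid oxidation programme were followed in C2C12 cells, a mouse myoblast line that fuses into myotubes when serum is lowered. The members, taken by their symbols, were Ppargc1a, Ppargc1b, Ppara, Ppard, Esrra, Cpt1b, Fabp3, Pdk4, Ucp2 and Ucp3. All 10 were found in each of the 4 deposited tables, which together list 23460 symbols. The study asked what the ubiquitin ligase Huwe1 and the deubiquitinase USP10, which act on the transcription factor TBP, do during muscle differentiation. The day 0 and day 6 comparisons each set 1 wild type library, which carried no hairpin, against 2 Huwe1 knockdown libraries made with different shRNAs. The methods describe lentiviral infection and puromycin selection for knockdown, in myoblasts and in myotubes. They do not state whether wild type cells underwent these steps. At day 0 and day 6 the steps therefore cannot be told apart from Huwe1 loss. Day 0 cells grew in 10% fetal bovine serum, and all later cells differentiated in 2% horse serum. The day 8 comparison used myotubes infected on day 4, with 2 libraries of other Huwe1 shRNAs against 1 library that the labels describe as non-targeting RNA and the table header and methods call wild type. The last comparison set 1 library of C2C12 cells carrying a USP10 cDNA under the EF1a promoter, on day 6, against a control column that was mapped to no sample. The labels do not name the species of that cDNA. Every culture was of the one cell line, and the hairpins that the labels give for day 0 and day 6 are not those of the methods.

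Each table holds 1 FPKM value per condition (fragments counted per unit of transcript length and of library size), and the 2 knockdown libraries of a stage are pooled in 1 column. No difference given here therefore has a replicate check, and no p-value was computed. Differences are log2 ratios of treated to control FPKM with 0.01 added to each. That constant shrinks ratios mainly near 0 FPKM, and ratios of low genes can be large on few fragments. The words "fell" or "rose" mean at least 2-fold in a gene with at least 1 FPKM in 1 of the columns compared. Depth, estimated from the steps between low values, was 7800000 to 29900000 fragments in the single-library columns, lowest in the control of the USP10 table, and was not estimated for pooled columns. Huwe1 fell at day 0 (log2 ratio -1.33), and its ratio was -0.68 at day 6, -0.75 at day 8 and -0.13 in the USP10 table, where Usp10 itself rose (1.89). The muscle marker Des was at 345 FPKM in control myoblasts, and the differentiation marker Myog was at 619 FPKM in control cells of day 6 and 392 FPKM in those of day 8. The adipocyte markers Adipoq, Lep and Cfd and the leukocyte marker Tyrobp were listed at 0 in all 8 columns. Other genes of those lists were detected, among them Pparg at 10.6 FPKM in the day 0 control, Cebpa at 4.02 FPKM in the day 8 control and Cd14 at 3.62 FPKM in the day 0 control. Of the endothelial markers Cdh5 had 13.5 FPKM in the day 0 control.

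The only view of how far control columns of 1 day differ comes from the 2 day 6 control columns, one in the knockdown table and one in the USP10 table. Both headers name the same read file, but the values are not a rescaling of each other. Whether the 2 columns come from separate cultures is not known. Estimated depth was 29900000 fragments in the first and 7800000 in the second. The list of 12 muscle markers summed to 17075 and 7022 FPKM, and the fibroblast marker Dcn had 7.94 and 50.3 FPKM. With both columns centred on the median gene, the robust SD of their log2 ratios was 0.63. A difference of at least 2-fold was seen in 19.9% of 11459 genes. Among the members, Ucp2 was 7.14-fold lower in the knockdown table's control and Fabp3 was 2.11-fold higher there. Esrra, Pdk4 and Ucp3 differed by at most 1.25-fold. These differences stand beside the day 6 results below.

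Fatty acids enter muscle cells and are carried by binding proteins to the mitochondria, where the carnitine palmitoyltransferases pass them to beta-oxidation. The nuclear receptors of the PPAR family bind fatty acids and, with the oestrogen-related receptors and the PGC-1 coactivators, switch on genes of this pathway. Skeletal muscle is known for a rise of oxidative genes as myoblasts differentiate, and Pdk4, Ucp3 and Cpt1b are textbook PPAR targets there.

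Fabp3, the fatty acid binding protein of heart and skeletal muscle, fell in all 4 comparisons. So did Ucp2, an uncoupling protein of the inner mitochondrial membrane, although its decrease with USP10 became an increase against the other day 6 control. For both genes the day 0 decrease was not counted with a minimum of 5 FPKM or a pseudocount of 1 FPKM. Centred on 12 housekeeping genes, whose own day 8 ratios ran from -0.66 to 0.76, neither day 8 decrease was counted. Pdk4, the kinase that inactivates pyruvate dehydrogenase, had a positive ratio in all 4 and rose at day 8. Ppard and Esrra stayed within 0.37 log2 units of their own control in every table. With the day 6 controls exchanged, Ppard had ratios of -0.94 in the knockdown and 0.57 with USP10. Ppargc1b fell in the day 6 knockdown, but with the day 6 controls exchanged it fell with USP10 instead.

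**Figure D1:**
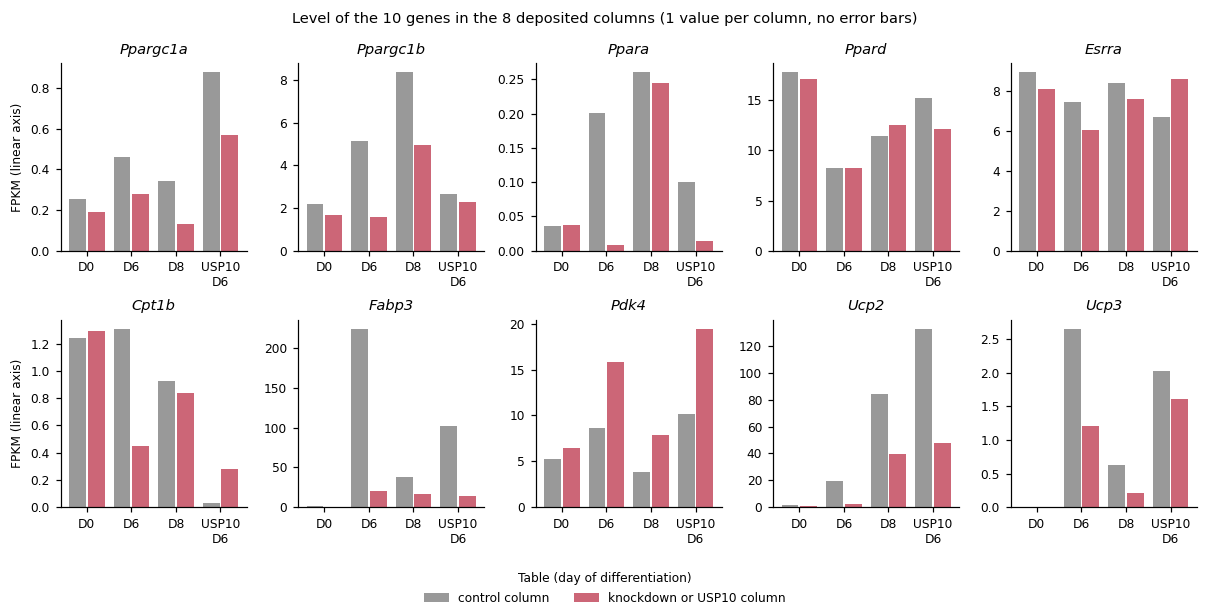
Level in FPKM (linear vertical axes from 0, a separate axis per gene) of the 10 genes in the control column (grey) and the Huwe1 knockdown or USP10 column (red) of the tables of day 0 (D0), day 6 (D6), day 8 (D8) and USP10, 1 value per column. Fabp3 reaches 224.7 FPKM in the day 6 control against 20.2 in the knockdown, while the paired bars of Esrra lie close together, at 7.42 and 6.02.

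Ppargc1a and Ppargc1b encode PGC-1alpha and PGC-1beta, coactivators that bind nuclear receptors without touching DNA themselves. Ppargc1a, on chromosome 5 (mm10, chr5:51454249-51553921), was under 1 FPKM in all 8 columns. Its control values were 0.254 at day 0, 0.462 at day 6, 0.340 at day 8 and 0.878 in the USP10 table, against 0.189, 0.276, 0.133 and 0.567 FPKM in the treated columns. Every treated value lay below its control, at levels below the minimum set for calling a change. By estimate, 36.0 fragments stood behind the day 0 control value and 44.3 behind the control value of the USP10 table. The day 6 control of the knockdown table had 89.2 and the USP10 column 101.

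Ppargc1b, on chromosome 18, was the more abundant coactivator per length, by 3.05-fold to 37.3-fold over Ppargc1a in the 8 columns. Its control levels were 2.18 FPKM at day 0, 5.16 at day 6, 8.38 at day 8 and 2.68 in the USP10 table, and its treated levels were 1.67, 1.59, 4.97 and 2.28 FPKM. All 4 treated values were below their controls, and the gap was widest at day 6. There Ppargc1b fell 3.23-fold (log2 ratio -1.69), while the ratios were -0.39 at day 0, -0.75 at day 8 and -0.23 with USP10. The day 6 controls themselves differ 1.83-fold in Ppargc1b. With these controls exchanged the knockdown ratio was -0.80, under 2-fold, and the USP10 ratio was -1.17, past it.

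Ppara and Ppard encode the PPAR receptors usually tied to fatty acid oxidation. Ppara (chr15:85735564-85806851) was at most 0.261 FPKM in any column, and 20.4 or fewer fragments were estimated behind its single-library values. Its values in the control and treated columns were 0.0358 and 0.0372 FPKM at day 0, 0.200 and 0.00849 at day 6, 0.261 and 0.245 at day 8, and 0.1002 and 0.0141 in the USP10 table. The treated columns of both day 6 tables were the lowest of the 8.

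Ppard (chr17:28232754-28301469) was the most abundant per length of the 5 coactivator and receptor genes in all 8 columns, at 8.23 FPKM or above. It had 17.8 FPKM in the day 0 control and 17.1 in the knockdown, 8.26 and 8.23 at day 6, 11.4 and 12.5 at day 8, and 15.2 and 12.2 in the USP10 table. The control and knockdown values of Ppard nearly coincided at day 0 and day 6, with log2 ratios of -0.06 and -0.01. The ratios were 0.13 at day 8 and -0.32 with USP10. The day 6 controls differed by 1.94-fold, which is more than any of these 4 differences, and with the controls exchanged the ratios were -0.94 for the knockdown and 0.57 for USP10.

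Esrra encodes the oestrogen-related receptor alpha, an orphan receptor that works with PGC-1 on mitochondrial genes. It lies on chromosome 19 (chr19:6909698-6921808 as listed), and the listed locus also covers the neighbouring Trmt112. Reads of the 2 genes may therefore not be separable, and the values of Esrra are uncertain. The level of Esrra was 8.93 and 8.06 FPKM in the day 0 control and knockdown, and 7.42 and 6.02 at day 6. It was 8.38 and 7.60 FPKM at day 8, and 6.65 and 8.60 in the USP10 table. The 8 values ran from 6.02 to 8.93 FPKM, the narrowest range of the members on a fold scale. The 3 knockdown ratios were negative (-0.15, -0.30 and -0.14) and that of USP10 was positive (0.37), all short of 2-fold. In Esrra the day 6 controls differed by only 1.06-fold. Trmt112, at 113 FPKM in the day 0 control, had ratios of 0.05 at day 0 and 0.07 at day 6. Its ratios were 0.03 at day 8 and 0.34 with USP10. The part of Trmt112 reads in the Esrra values was not tested.

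The fatty acid handling genes follow, with 250 bases of the promoter of 4 of them. They are shown because Fabp3 and Ucp2 were below their own control in all 4 tables, Pdk4 was above it, and Ucp3 is the neighbour of Ucp2. RefSeq promoters (GRCm38.p6) were found for 8 of the 10 members, without Cpt1b and Ppargc1b. Each is printed 5′ to 3′ on the strand of the gene, Fabp3 from chr4:130308488-130308737 (+), Pdk4 from chr6:5496279-5496528 (-), Ucp2 from chr7:100493108-100493357 (+) and Ucp3 from chr7:100472741-100472990 (+). Each ends just before the start used in the promoter table, which for Ucp2 lies inside the gene, so that its last 21 bases fall past the start of the RefSeq gene. Capitals mark the hexamer AGGTCA, the core of nuclear receptor sites, and E-boxes of the form CANNTG, on either strand.
Fabp3: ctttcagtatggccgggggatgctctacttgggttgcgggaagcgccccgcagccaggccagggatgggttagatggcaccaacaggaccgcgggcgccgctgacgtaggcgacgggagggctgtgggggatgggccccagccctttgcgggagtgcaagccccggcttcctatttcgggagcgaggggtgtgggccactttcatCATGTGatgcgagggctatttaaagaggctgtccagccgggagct
Pdk4: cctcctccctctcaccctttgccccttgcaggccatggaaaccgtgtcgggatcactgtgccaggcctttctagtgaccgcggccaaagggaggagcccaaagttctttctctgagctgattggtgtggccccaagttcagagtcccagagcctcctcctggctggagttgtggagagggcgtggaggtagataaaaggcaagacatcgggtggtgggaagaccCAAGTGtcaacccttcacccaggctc
Ucp2: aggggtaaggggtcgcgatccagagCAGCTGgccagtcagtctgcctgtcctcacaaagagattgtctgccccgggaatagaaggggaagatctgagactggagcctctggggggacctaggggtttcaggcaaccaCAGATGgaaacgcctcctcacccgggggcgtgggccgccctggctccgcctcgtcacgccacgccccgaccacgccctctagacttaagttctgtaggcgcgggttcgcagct
Ucp3: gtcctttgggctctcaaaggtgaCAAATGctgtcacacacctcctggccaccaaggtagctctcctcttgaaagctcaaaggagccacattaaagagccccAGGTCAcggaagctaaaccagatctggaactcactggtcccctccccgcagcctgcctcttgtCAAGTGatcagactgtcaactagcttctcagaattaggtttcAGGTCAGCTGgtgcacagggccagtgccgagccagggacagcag

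AGGTCA was found in 1 of the 8 promoters, that of Ucp3, at 149 and 44 bases before the start, and it occurs in 14.0% of the 32851 promoters of the table. The second of these overlaps the E-box CAGCTG at 40 bases. The direct repeat of 2 AGGTCA with any 1 base between, the form bound by PPAR with its partner RXR, and TCAAGGTCA, the extended form bound by Esrra, were in none of the 8 and are in 0.0335% and 0.387% of all promoters. CANNTG was in all 8, against 66.2% of all promoters, and CAGCTG, which is one form of CANNTG and is favoured by MyoD, was in those of Ppard, Ucp2 and Ucp3 (13.0% of all). These are letter matches in a short window, and no binding was measured.

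Fabp3 (chr4:130308778-130315463) had 1.34 FPKM in control myoblasts and 0.594 with Huwe1 knockdown at day 0. At day 6 the control had 224.7 FPKM and the knockdown 20.2. It had 37.7 and 16.8 FPKM at day 8, and 101.6 and 14.5 FPKM in the USP10 table. The treated column was the lower one in each table, and the treated columns from day 6 on kept within 14.5 to 20.2 FPKM while the controls spread from 37.7 to 224.7. The decrease was 11.1-fold in the day 6 knockdown (log2 ratio -3.47), 7.01-fold with USP10 (-2.81), 2.24-fold in day 8 myotubes (-1.17) and 2.24-fold at day 0 (-1.16). Of all genes, 2.46% were at least as low in the day 6 knockdown and 2.92% with USP10. Both day 6 decreases exceed the 2.11-fold difference between the day 6 controls. The day 0 value rests on about 24.2 fragments in the control. Reads could be shared with the annotated pseudogene Fabp3-ps1, and its last bases overlap Zcchc17, so the levels carry that uncertainty.

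Ucp2 (chr7:100493345-100502173) and Ucp3 (chr7:100472991-100486432) lie in tandem, 6912 bases apart. The listed end of Ucp2 overlaps Dnajb13, which had at most 0.259 FPKM in any column, and Ucp3 overlaps the antisense gene Gm10603. Whether reads were counted by strand is not given in the sources used here. Ucp2 had 1.32 FPKM in the day 0 control and 0.523 in the knockdown, and 19.5 and 2.64 at day 6. It had 84.6 and 39.4 FPKM at day 8, and 133.0 and 47.8 in the USP10 table. Each treated value was below its own control, but the USP10 column lay above the day 6 control of the knockdown table. Within tables Ucp2 fell 7.39-fold in the day 6 knockdown (log2 ratio -2.89), 2.78-fold with USP10 (-1.48), 2.49-fold at day 0 (-1.32) and 2.15-fold at day 8 (-1.10). Only the first of the day 6 decreases reaches the 7.14-fold difference between the day 6 controls. With the controls exchanged, the knockdown ratio was -5.71 and the USP10 ratio turned to 1.30.

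Ucp3, the uncoupling protein of skeletal muscle, was listed at 0 in the day 0 control and had 0.00943 FPKM in the knockdown. It had 2.66 and 1.20 FPKM at day 6, 0.632 and 0.217 at day 8, and 2.03 and 1.61 in the USP10 table. It was thus detected in every column from day 6 on, always at lower level per length than Ucp2, and always lower in the treated column. Among the tables in which Ucp3 reached 1 FPKM, only the day 6 knockdown passed 2-fold (2.20-fold, log2 ratio -1.14), and against the other day 6 control the ratio was -0.81. At day 8, where both columns were under that minimum, the ratio was -1.50.

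Pdk4 (chr6:5483351-5496278) had 5.28 FPKM in the day 0 control and 6.45 in the knockdown. It had 8.61 and 15.8 FPKM at day 6, 3.81 and 7.92 at day 8, and 10.1 and 19.5 in the USP10 table. The treated column was the higher one in each table, which held for no other member. Pdk4 rose 2.08-fold at day 8 (log2 ratio 1.05), and the ratios were 0.88 in the day 6 knockdown, 0.95 with USP10 and 0.29 at day 0, just short of 2-fold in both day 6 tables. The day 6 controls differed by 1.23-fold in Pdk4, less than these day 6 ratios, and with the controls exchanged the ratios were 0.59 and 1.19.

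Cpt1b, the muscle form of the carnitine palmitoyltransferase that admits fatty acids to the mitochondria, is listed at chr15:89416405-89429927 together with its neighbour Chkb, so its reads may not be separable and its values are uncertain. It had 1.24 and 1.29 FPKM at day 0, 1.31 and 0.449 at day 6, 0.923 and 0.838 at day 8, and 0.0296 and 0.280 in the USP10 table. Cpt1b fell 2.88-fold in the day 6 knockdown (log2 ratio -1.53) and was close to its control at day 0 and day 8. The day 6 controls were far apart in Cpt1b, at 1.31 and 0.0296 FPKM, farther than in any other member. The second of these corresponds to less than 1 fragment (0.668), so no fold against it is given, and the day 6 knockdown value of 0.449 FPKM lies above it. Against the control of the knockdown table, the USP10 value had a log2 ratio of -2.18. Over the same columns Chkb had a log2 ratio of 0.84 in the day 6 knockdown and 1.41 at day 8.

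**Figure D2:**
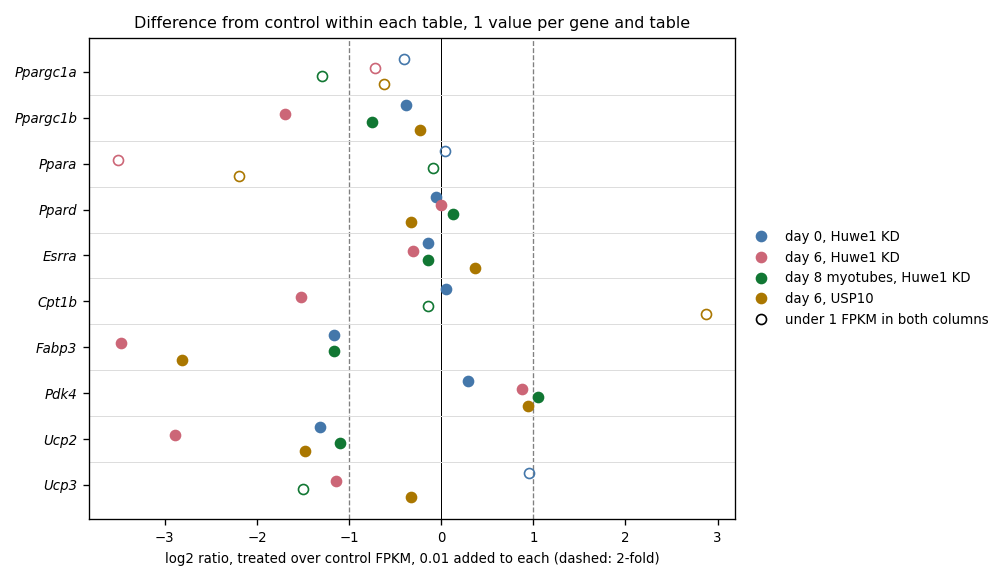
Log2 ratio of treated to control FPKM (horizontal axis, 0.01 added, dashed lines at 2-fold) of the 10 genes in the 4 comparisons, 1 point per gene and table, with open points for genes under 1 FPKM in both columns. Fabp3 and Ucp2 lie left of the 2-fold line in all 4 comparisons, from -3.47 to -1.10, Pdk4 lies right of 0 in all 4, and Ppard and Esrra lie near 0.

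At day 0, 7 of the 10 members passed the minimum of 1 FPKM. Fabp3 and Ucp2 fell and 0 members rose, where 1.69% of 10874 genes fell and 1.90% rose. The members that passed had a median log2 ratio of -0.15, against 0.00 for all genes. Both decreases occurred at control levels of 1.34 and 1.32 FPKM, and with a minimum of 5 FPKM or a pseudocount of 1 FPKM neither was counted. The muscle markers also moved at day 0, with 2 of 6 that passed lower and 1 higher. Their summed level was 411 FPKM in control and 204 in knockdown cells, of which Des alone had 345 and 173 FPKM. Of 6 fibroblast markers that passed, 5 had negative ratios and 1 was at least 2-fold higher, Dcn (1.79). Their sums were 986 and 594 FPKM, of which Col1a2 alone had 653 and 351 FPKM. Of 2 adipocyte markers that passed 1 was higher, Fabp4 (2.17). The part of these markers in the result was not tested.

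In the day 6 knockdown 8 members passed, of which Ppargc1b, Cpt1b, Fabp3, Ucp2 and Ucp3 fell and 0 rose. Of 11695 genes, 13.4% fell and 17.6% rose. The median of the members that passed was -1.33, against -0.01 for all genes. Against the other day 6 control the lower members numbered 2, Fabp3 and Ucp2. Muscle markers moved with them. Of 12 markers, 11 were at least 2-fold lower (median -3.25), and their summed level was 17075 FPKM in control cells and 3077 in knockdown cells. Myog had 619 and 27.1 FPKM. Of the fibroblast and mesenchymal markers, 7 of 7 that passed were higher (median 4.53), summing to 165 and 4783 FPKM, with Dcn at 7.94 and 2987 FPKM. Of 4 adipocyte markers that passed 1 was higher, Fabp4, at 0.348 and 4.68 FPKM. Both endothelial markers that passed were higher, Cdh5 at 0.0241 and 6.83 FPKM and Tek at 0.0616 and 1.08 FPKM, and of 2 leukocyte markers that passed 1 was higher, Cd14 (2.59). The part of these shifts in the members' values was not tested, and in such bulk RNA fewer cells of a type and less RNA per cell cannot be told apart.

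In day 8 myotubes 6 members passed, of which Fabp3 and Ucp2 fell and Pdk4 rose. All 3 lay near the 2-fold line. Of 11755 genes, 10.0% fell and 7.89% rose, and the median was -0.45 for the members and 0.00 for all genes. Centred on housekeeping genes, which moves the median of all genes to 0.24, 0 members fell, and with a pseudocount of 1 FPKM 0 rose. Of 12 muscle markers 10 were at least 2-fold lower (median -1.80), with sums of 13689.9 and 3432 FPKM. The fibroblast markers were 1 lower and 2 higher of 6, with sums of 744 and 1017 FPKM, of which Col3a1 alone had 411 and 710 FPKM. Both leukocyte markers that passed were higher, Cd14 (1.13) and Cd68 (1.30). Their part in the result was not tested.

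With USP10 overexpression 7 members passed, of which Fabp3 and Ucp2 fell and 0 rose. Of 11482 genes, 10.0% fell and 9.70% rose, and the medians were -0.32 for the members and 0.05 for all genes. Against the other day 6 control Ppargc1b, Cpt1b and Fabp3 fell (log2 ratios -1.17, -2.18 and -3.95), and Ucp2 and Pdk4 rose (1.30 and 1.19). Muscle markers were lower here too, 9 of 12 (median -2.78), summing to 7022 FPKM in the control and 3356 with USP10. The fibroblast markers were higher in 4 of 7 (median 1.13), summing to 604 and 4302 FPKM, of which Dcn alone had 50.3 and 3037 FPKM. Of 4 adipocyte markers that passed 1 was lower, Lipe (-1.49), and 1 higher, Fabp4 (2.82). The endothelial marker Cdh5 was higher (4.56), and of 2 leukocyte markers that passed Cd68 was lower (-1.15) and Cd14 higher (1.37). Their part in the result was not tested.

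**Figure D3:**
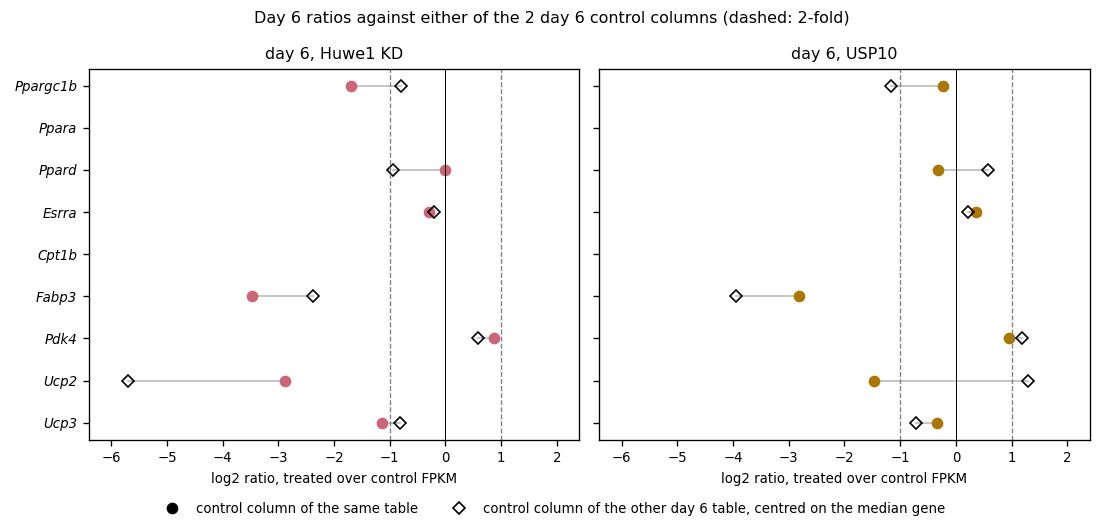
Log2 ratio of treated to control FPKM (horizontal axis, dashed lines at 2-fold) in the day 6 knockdown (left) and with USP10 (right), against the control column of the same table (filled circles) and against that of the other day 6 table centred on the median gene (open diamonds), for genes with a value in both. Fabp3 stays below -2 in all 4 cases, whereas Ucp2 moves from -2.89 to -5.71 on the left and from -1.48 to 1.30 on the right.

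Levels can also be set side by side across stages. The tables were normalized separately, and these ratios were centred on the median gene and are descriptions. Relative to day 0, Fabp3 was 172-fold higher in the control of the day 6 knockdown table, and 80.5-fold higher in the control of the USP10 table. Between the knockdown columns of day 0 and day 6 it was 33.2-fold higher. Ucp2 was 15.2-fold and 107-fold higher in the same 2 controls, and 4.93-fold higher between the knockdown columns. Ppargc1b was 2.44-fold and 1.31-fold higher in the controls, while the knockdown columns had 1.67 FPKM at day 0 and 1.59 at day 6. Pdk4 was 1.68-fold and 2.05-fold higher in the controls and 2.44-fold higher between the knockdown columns. From day 6 to day 8 Fabp3 was 6.33-fold lower in the controls and 1.31-fold lower between the knockdown columns. Ucp2 was 4.08-fold higher in the controls and 13.7-fold higher between the knockdown columns. The day 8 columns also differ from those of day 6 in the shRNAs, the time of infection and the control, which was labelled non-targeting. The day cannot be told apart from these differences.

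In order of level, Fabp3 was lowest at day 0 and highest in the day 6 control, followed by the control of the USP10 table. Ucp2 was lowest at day 0 and highest in the control of the USP10 table, followed by the day 8 control. Pdk4 was lowest in the day 8 control and highest in the USP10 column, and Ppard ran from 8.23 FPKM in the day 6 knockdown to 17.8 FPKM in the day 0 control. With 1 value per column, neighbours in these orders cannot be separated by a replicate spread. Steps smaller than the difference between the day 6 controls, such as that of Fabp3 between 16.8 and 20.2 FPKM, are within what control columns show.

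The genes whose 4 log2 ratios were most like those of a member were ranked by Euclidean distance over 7210 genes with at least 5 FPKM in every table, for the 6 members that passed in all 4. Fabp3 was nearest to Gpt2 (distance 0.62), Actn3 (0.74) and Rbm38 (1.05), and Ucp2 to Sox11 (0.87), Pkig (1.08) and Gpt2 (1.15). Pdk4 was nearest to Gabarapl1 (0.23), Gclm (0.26) and Pan2 (0.29). Ppargc1b was nearest to Dbi (0.28), an acyl-CoA binding protein, and Prmt7 (0.39) was also close. Ppard had Tubgcp4 (0.09), Ttc23 (0.09) and Dlg1 (0.10) beside it, and Esrra had Hdgf (0.05), Klhl18 (0.07) and Elp5 (0.08). The 4 ratios are few points, and near-flat genes such as Ppard and Esrra have many close neighbours.

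The wider pathway was read from 6 lists that leave the members out. Their counts stand beside the shares of all genes given above. These were 1.69% lower and 1.90% higher at day 0, and 13.4% and 17.6% in the day 6 knockdown. They were 10.0% and 7.89% at day 8, and 10.0% and 9.70% with USP10. The carnitine shuttle and mitochondrial beta-oxidation list had 24 genes past the minimum in each table. At day 0 none of them passed 2-fold. In the day 6 knockdown 4 fell (16.7%, near the share of all genes) and 2 rose (8.33%), with a median of -0.58 and with Crat, the carnitine acetyltransferase, at 36.7 and 9.00 FPKM (-2.03) and Cpt1a, the liver form of the enzyme that Cpt1b encodes, at 8.83 and 29.2 FPKM (1.72). At day 8, 1 fell and 3 rose (median -0.23), from Acaa2 (-1.07), a thiolase, to Acot2 (1.71), an acyl-CoA thioesterase. With USP10 1 fell, Echs1 (-1.04), an enoyl-CoA hydratase, and 0 rose (median -0.07).

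Genes of fatty acid uptake, activation and lipid droplets moved in both directions, as did all genes. In the day 6 knockdown 6 of 23 fell (26.1%) and 7 rose (30.4%), with a median of -0.40. At day 8, 31.8% fell and 18.2% rose, and with USP10 18.2% fell and 18.2% rose. In the day 6 knockdown Acsl1, which activates long-chain fatty acids, had 38.6 and 6.95 FPKM (-2.47). Lpl, the lipoprotein lipase, had 9.44 and 130.1 FPKM (3.78) there. At day 8, 7 of 22 fell and 4 rose (median -0.13), with Acsl6, an acyl-CoA synthetase, at -2.43 and Angptl4, a secreted inhibitor of Lpl, at 2.23. With USP10 4 of 22 fell and 4 rose (median 0.39), with Acsl6 at -2.09 and Lpl at 2.99. At day 0, 1 of 19 fell and 1 rose.

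The pyruvate dehydrogenase and malonyl-CoA list, which surrounds Pdk4, had 6 of 17 genes lower and 1 higher in the day 6 knockdown (median -0.74). Pdhx, a structural subunit of the complex, had a ratio of -1.73, and Pdk3, another of its kinases, one of 1.65. At day 8 none of the 17 passed 2-fold, from Pdhb, a catalytic subunit, at -0.97 to Slc16a1, a monocarboxylate transporter, at 0.66 (median -0.37). With USP10 2 fell and 0 rose (median -0.17). Acacb, the acetyl-CoA carboxylase whose product inhibits Cpt1b, was singled out after its values were seen. It had 13.7 and 0.0918 FPKM in the day 6 knockdown, 2.51 and 0.0119 with USP10, and 2.32 and 2.05 at day 8.

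Nuclear receptor partners and coregulators had none of 22 genes past 2-fold at day 0. In the day 6 knockdown 4 of 24 fell (16.7%, near the 13.4% of all genes) and 0 rose, with Lpin1, which also acts as a coactivator with PGC-1alpha, at -1.75. At day 8, 1 of 24 fell and 1 rose, and with USP10 3 of 24 fell and 0 rose. The medians of this list lay between -0.08 and 0.20 in the 4 comparisons. Of the 5 uncoupling and adenine nucleotide carrier genes that passed, 0 fell and 1 rose in the day 6 knockdown, which was Slc25a30 (1.66), and 1 fell and 1 rose at day 8. None of the 5 passed 2-fold at day 0 or with USP10. The peroxisomal list had 1 of 13 lower and 2 higher in the day 6 knockdown, from Amacr (-1.42) to Crot (1.09) among its well-expressed genes, 1 of 13 higher at day 8, and none past 2-fold of 12 at day 0 and of 13 with USP10.

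**Figure D4:**
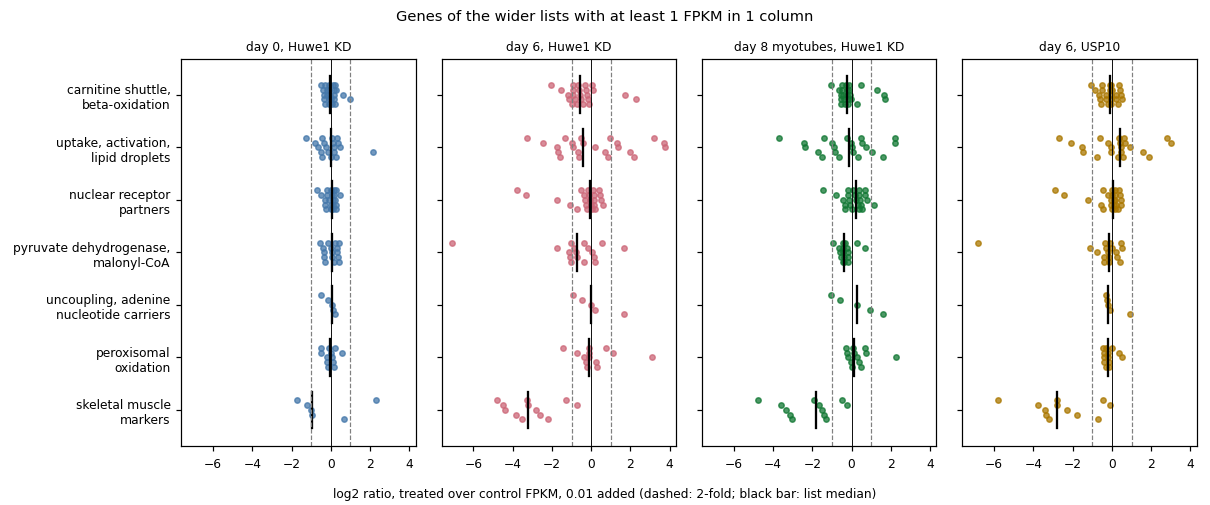
Log2 ratio of treated to control FPKM (horizontal axis, 0.01 added, dashed lines at 2-fold) of the genes of the 6 wider lists and of the skeletal muscle markers in the 4 comparisons, 1 point per gene with at least 1 FPKM in 1 column, and a black bar at each list's median. In the day 6 knockdown the beta-oxidation and pyruvate dehydrogenase medians lie at -0.58 and -0.74, and the muscle markers at -3.25.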

How the data were processed

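RNA from C2C12 cells was isolated, mRNA was purified on oligo(dT) beads, and libraries were made with the ScriptSeq v2 kit and sequenced on a HiSeq 2000. The methods name Tophat and Cuffdiff, and the submitters' processing notes name Bowtie2, Cuffdiff and mm10, without versions. The authors deposited 1 FPKM value per gene and condition in 4 tables, each normalized separately. Their fold changes, test scores, p-values and q-values were not used.

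Log2 ratios took a pseudocount of 0.01 and genes with at least 1 FPKM in 1 of the columns. The members and lists were chosen with earlier results of these data known. List genes named are the lowest and highest ratio per list and comparison that reach 10 FPKM in either column and 1 FPKM in both. For similarity, the 3 nearest genes are named, except 1 that is not reported here. Depth came from 1-transcript genes (GENCODE vM21) of at least 1500 bases, and covers counting only. Ratios and depth were tested on simulated data. The noise set for the ratios was smaller than the spread between the day 6 controls, so these tests cover the computation only. Alternatives were other pseudocounts, minimums and centrings. All 8 columns were used. The software was matplotlib 3.10.9, pandas 2.3.3 and numpy 2.4.6 under Python 3.11.15.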

Additional observations from a re-analysis of the deposited data

How the results depend on the processing

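No paired analysis was possible because the 2 knockdown libraries of each stage are pooled in 1 column, and for the same reason no replicate could be left out. Of the members' single ratios, 183 of the values under other pseudocounts, minimums and centrings moved by less than 0.63 log2 units. The 2 that moved by more did so with a pseudocount of 1 FPKM: Ucp2 at day 0 (-0.61) and Cpt1b in the day 6 knockdown (-0.67). A minimum cannot change a single ratio, and centring shifted all ratios of a comparison by the same amount, at most 0.32. Only the pseudocounts could therefore move a value past 0.63, so the 183 are no measure of robustness. The number of members lower at day 0 was 0 with a pseudocount of 1 FPKM, with a minimum of 5 FPKM and with 1 FPKM required in both columns. The number lower in the day 6 knockdown was 3 with a pseudocount of 1 FPKM and 3 with a minimum of 5 FPKM. At day 8 the number higher was 0 with a pseudocount of 1 FPKM, and the number lower was 4 with no minimum and 0 when centred on housekeeping genes. With USP10 the number higher was 1 with no minimum, which was Cpt1b, whose control value there corresponds to less than 1 fragment (0.668). Exchanging the day 6 controls, an alternative chosen after seeing the data, gave 2 members lower in the day 6 knockdown (Fabp3 and Ucp2), and with USP10 3 lower (Ppargc1b, Cpt1b and Fabp3) and 2 higher (Ucp2 and Pdk4), and reversed Ucp2 with USP10 to 1.30. The cause of that reversal was not tested.

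Centring on housekeeping genes moved the median of all genes to 0.11 at day 0, -0.18 in the day 6 knockdown, 0.24 at day 8 and -0.27 with USP10, and gave 137, 1960, 917 and 1668 lower genes and 245, 1781, 1410 and 740 higher genes in that order. Of the 12 housekeeping genes, 0 passed 2-fold at day 0 and day 8, but 2 rose in the day 6 knockdown and 3 with USP10. Among them were B2m, at 136 and 1242 FPKM in the day 6 knockdown, and Tbp, at 27.8 and 89.6 FPKM with USP10. The reference was thus not stable in the day 6 tables.

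Other counts over all genes moved as well. The genes lower and higher at day 0 numbered 184 and 207, 88 and 124 with a pseudocount of 1 FPKM, 90 and 117 with a minimum of 5 FPKM, 106 and 91 with 1 FPKM in both columns, and 953 and 1710 with no minimum. In the day 6 knockdown the 1571 lower and 2061 higher genes became 3141 and 3937 with no minimum, and those higher 1357 with a minimum of 5 FPKM and 1284 with 1 FPKM in both. At day 8, 1180 and 928 became 771 and 502 with the minimum of 5 FPKM, 783 and 544 with 1 FPKM in both, and 3640 and 2408 with no minimum, and those higher were 545 with a pseudocount of 1 FPKM. With USP10, 1153 and 1114 became 658 and 740, 669 and 741, and 2880 and 2983 under those minimums, and 1777 and 2044 with the other control. Ppara and Ppargc1a were under 1 FPKM in every column. In the single-library columns Ppara had at most 20.4 estimated fragments, and Ppargc1a had 36.0 to 101.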
